A study of Mus musculus with 14 samples.

Results

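The islands described here are the stretches of chromatin called as enriched for H3K27me3 (trimethylation of lysine 27 of histone H3) in 81K1 mouse embryonic stem cells, before and after knockdown (kd) of Smarcb1. Every called island on chromosomes 1 to 19 and X was taken, which gave 22900 control islands and 18311 kd islands, 41211 of the 352805 regions in the 10 lists of the experiment. In all, 14 samples belonged to it: 1 library for each of 5 antibodies (Smarca4, Ezh2, H3K27me3, H3K27ac and H3K4me3) and condition, plus 4 input samples. 81K1 is a line from 1 clone (K1) of OG2 embryonic stem cells, with an anti-Smarcb1 shRNA cassette under a doxycycline-dependent promoter at Rosa26. Control cells carried the cassette and stayed untreated, and Smarcb1 kd cells received 1 µg/ml doxycycline for 72 h. Doxycycline itself and the knockdown therefore cannot be told apart in these lists, and with 1 library per condition no spread between replicates exists and no test between conditions was made. The lists hold no measure of the Smarcb1 level.

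H3K27me3 is set by Polycomb repressive complex 2 (PRC2), whose catalytic subunit in stem cells is Ezh2 and whose core partners are Eed and Suz12. The mark lies over silent genes, above all over CpG-rich promoters of developmental regulators, where it often coincides with H3K4me3 in bivalent chromatin that is held ready for activation or stable silencing. Smarcb1 is a core subunit of the BAF (SWI/SNF) chromatin remodelling complex, whose ATPase in stem cells is Smarca4 and which is known to counteract PRC2 on chromatin.

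The stem cell label was looked at through 5 pluripotency genes. The transcription start sites (TSS) of Pou5f1, Sox2, Nanog and Zfp42 held H3K4me3, H3K27ac and Smarca4 and no H3K27me3 island in either condition. Esrrb differed. Its annotated start lay in an H3K27me3 island of 19.4 kb in control and 13.6 kb after kd, without H3K4me3 in either. The genes of the PRC2 core, Ezh2, Eed and Suz12, and of Smarcb1 and Smarca4 had no H3K27me3 island within 1 kb of the TSS.

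Promoters of 6 genes are printed as examples of the 3 fates a TSS could have: Hoxd13 and Neurog1 kept their island, Dazl and Cdkn1a lost it, and Tbx19 and Gabrg1 gained one. They were chosen after the values were seen, for the contrast in CpG density and for genes of known function. Each runs from 250 bases before to 50 bases after the RefSeq start, on the strand of the gene and 5′ to 3′, and capitals mark CpG dinucleotides.
Hoxd13 (chr2:74667975-74668274, GRCm38.p6, plus strand): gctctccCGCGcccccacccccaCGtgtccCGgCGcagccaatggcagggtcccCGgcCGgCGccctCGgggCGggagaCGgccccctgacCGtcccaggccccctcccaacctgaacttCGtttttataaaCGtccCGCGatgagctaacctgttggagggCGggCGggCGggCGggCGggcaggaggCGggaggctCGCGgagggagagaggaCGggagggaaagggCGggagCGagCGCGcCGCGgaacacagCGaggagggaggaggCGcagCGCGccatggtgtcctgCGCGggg
Neurog1 (chr13:56252131-56252430, GRCm38.p6, minus strand): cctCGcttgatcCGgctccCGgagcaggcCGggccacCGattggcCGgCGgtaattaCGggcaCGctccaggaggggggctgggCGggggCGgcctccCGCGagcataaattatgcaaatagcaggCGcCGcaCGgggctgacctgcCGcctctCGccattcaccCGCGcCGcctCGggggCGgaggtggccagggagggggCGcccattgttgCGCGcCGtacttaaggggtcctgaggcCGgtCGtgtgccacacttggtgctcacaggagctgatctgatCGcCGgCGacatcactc
Dazl (chr17:50293571-50293870, GRCm38.p6, minus strand): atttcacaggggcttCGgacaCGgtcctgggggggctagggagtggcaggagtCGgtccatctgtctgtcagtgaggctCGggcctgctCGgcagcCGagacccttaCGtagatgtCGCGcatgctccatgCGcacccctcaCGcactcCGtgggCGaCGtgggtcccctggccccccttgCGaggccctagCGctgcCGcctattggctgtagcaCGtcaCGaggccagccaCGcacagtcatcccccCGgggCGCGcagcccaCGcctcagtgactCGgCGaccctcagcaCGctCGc
Cdkn1a (chr17:29090729-29091028, GRCm38.p6, plus strand): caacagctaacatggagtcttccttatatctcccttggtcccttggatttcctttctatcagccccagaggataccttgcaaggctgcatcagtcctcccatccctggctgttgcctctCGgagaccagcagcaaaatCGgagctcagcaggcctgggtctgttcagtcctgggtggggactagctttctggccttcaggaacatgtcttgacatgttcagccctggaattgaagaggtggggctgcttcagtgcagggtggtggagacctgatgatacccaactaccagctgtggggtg
Tbx19 (chr1:165160724-165161023, GRCm38.p6, minus strand): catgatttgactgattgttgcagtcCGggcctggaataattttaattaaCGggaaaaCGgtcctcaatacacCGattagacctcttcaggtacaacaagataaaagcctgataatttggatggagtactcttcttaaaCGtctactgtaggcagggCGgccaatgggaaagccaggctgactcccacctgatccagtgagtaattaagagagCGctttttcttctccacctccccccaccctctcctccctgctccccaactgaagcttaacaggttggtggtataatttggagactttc
Gabrg1 (chr5:70842568-70842867, GRCm38.p6, minus strand): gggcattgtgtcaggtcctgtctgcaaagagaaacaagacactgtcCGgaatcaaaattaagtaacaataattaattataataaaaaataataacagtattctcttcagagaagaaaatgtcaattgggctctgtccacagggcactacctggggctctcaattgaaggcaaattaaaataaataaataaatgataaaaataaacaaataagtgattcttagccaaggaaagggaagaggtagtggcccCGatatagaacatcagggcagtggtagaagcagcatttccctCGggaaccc
These stretches hold 37, 32, 28, 2, 7 and 3 CpG dinucleotides in the order printed. Over the 14230 of 21755 protein-coding genes matched to a RefSeq promoter the median was 16 CpG. It was 19 at the 3887 promoters that kept an island, 10 at the 948 whose whole island was gone after kd, and 8 at the 246 where a new island appeared. The 257 that lost an island still called elsewhere had a median of 11, and the 94 that gained one from a control island 17. The 8798 without an island in either condition had 15. Dazl, with 28 CpG, lies well above the median of the promoters that lost an island, so the classes overlap widely.

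H3K27me3 covered less of the genome after Smarcb1 kd. The control islands summed to 195.3 Mb and the kd islands to 144.8 Mb, a log2 ratio of −0.43. The median island was equally wide, 5800 bp in both lists, and the lists differed in the number of islands and in both tails of the width. The 10th percentile was 2200 bp for control islands and 2600 bp for kd islands. The 90th percentile of the width stood at 17000 bp for control islands and at 15200 bp for kd islands, the 99th percentile was 45400 and 36200 bp, and the widest island spanned 260400 and 207400 bp. Neighbouring islands also lay farther apart, with a median gap of 18200 bp in control and 44800 bp after kd. The p-value that SICER gave an island was listed as 0 for 2407 control islands (10.5%) and for 797 kd islands (4.35%). The p-values were thus less extreme in the kd list. Read depth is unknown for both libraries, and the part of such differences between libraries in the lower coverage was not tested.

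The 106.2 Mb shared by both conditions made up 54.4% of the control bases and 73.3% of the kd bases. Of the bases present in control alone, 54.96 Mb lay in islands that met no kd island at all. A further 30.4 Mb were trimmed from the ends of control islands that still met a kd island, and 3.755 Mb fell into gaps inside them. On the kd side, 23.17 Mb lay in new islands, 13.63 Mb extended the ends of matched islands and 1.795 Mb filled gaps between them. Loss of whole islands and trimming of ends therefore held nearly all bases lost, and inner gaps few.

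**Figure D1:**
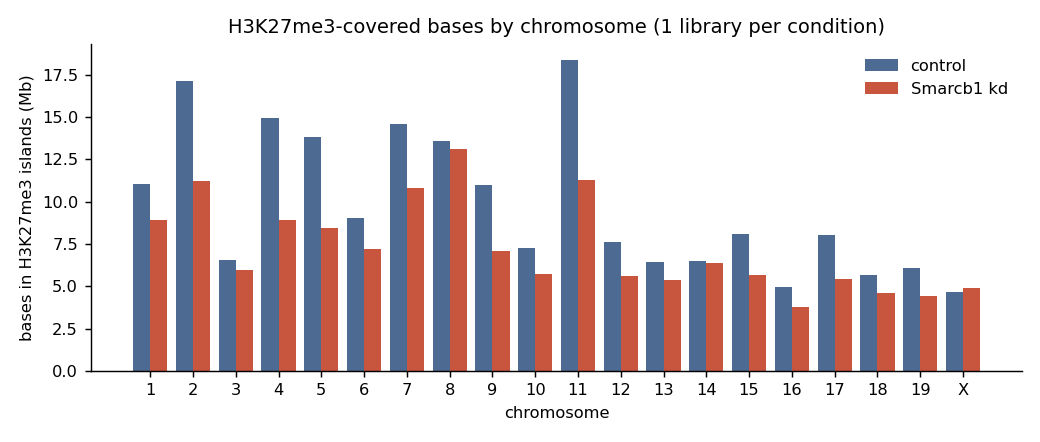
Bases in H3K27me3 islands (Mb, vertical axis) on each chromosome (horizontal axis) in control and after Smarcb1 kd, each bar 1 library. Coverage was lower after kd on all 19 autosomes, by the least on chromosomes 14 and 8, and slightly higher on X.

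Coverage was lower on each of the 19 autosomes, but to unequal degrees, as the plot of covered bases by chromosome shows. The log2 ratio was lowest on chromosome 4 (14.96 Mb in control, 8.909 Mb after kd), chromosome 5 (13.8 and 8.415 Mb) and chromosome 11 (18.4 and 11.3 Mb). Chromosome 14 held 6.503 and 6.399 Mb, and X held 4.656 and 4.921 Mb. Across the 20 chromosomes the log2 ratio of kd to control was more negative where GC content was higher (Pearson r = −0.73, Spearman rho = −0.69) and where more of the chromosome was covered in control (r = −0.66, rho = −0.64). These correlations are descriptions, since all chromosomes share the same pair of libraries. Chromosome 8 stood apart. It was the only autosome with more islands after kd, 1071 in control and 1351 after kd, while the covered bases were 13.61 and 13.12 Mb and the median width was 9000 and 7000 bp, the control value being the highest of any chromosome.

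Matching the islands by an overlap of at least 1 bp showed how they changed. Of 22900 control islands, 10103 (44.1%, 95% Wilson interval 43.5 to 44.8%) met no kd island. Of 18311 kd islands, 5294 (28.9%, 28.3 to 29.6%) met no control island. These intervals, and all that follow, cover counting error only. The balance of unmatched islands depended on the lists. With lists of equal number 6584 control and 6037 kd islands were unmatched. With lists of equal covered bases the balance turned, to 2224 of 11420 control and 8118 of 18311 kd islands. Splitting and joining were rarer: 1339 control islands (5.85%) met 2 or more kd islands, and 1231 kd islands (6.72%) met 2 or more control islands. Their balance depended on the lists, with 1325 split and 938 joining islands in lists of equal number, and 804 and 327 once islands less than 2000 bp apart were joined. The control islands that went unmatched were narrow, with a median of 4400 bp against 7800 bp for matched ones, and only 6 of them had a p listed as 0.

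Whether an island persisted went with its width and its p. In control, 69.2% of islands under 2 kb had no kd counterpart, 58.6% of those of 2 to 5 kb, 44.2% of 5 to 10 kb, 23.3% of 10 to 20 kb, 6.69% of 20 to 50 kb and 1.13% (2 of 177) of those of 50 kb or more. In the tenth of control islands with the lowest p, 5 of 2290 (0.218%) were unmatched, and in the tenth with the highest p 1804 (78.8%) were. Kd islands followed the same course, from 61.5% unmatched under 2 kb to 2.01% at 20 to 50 kb, with 4.92% (3 of 61) at 50 kb or more. Wide islands broke up instead: 124 of the 177 control islands of 50 kb or more (70.1%, 62.9 to 76.3%) met several kd islands. Of the 61 kd islands of that width, 20 (32.8%, 22.3 to 45.3%) met several control islands. These width classes were each taken from 1 list.

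**Figure D2:**
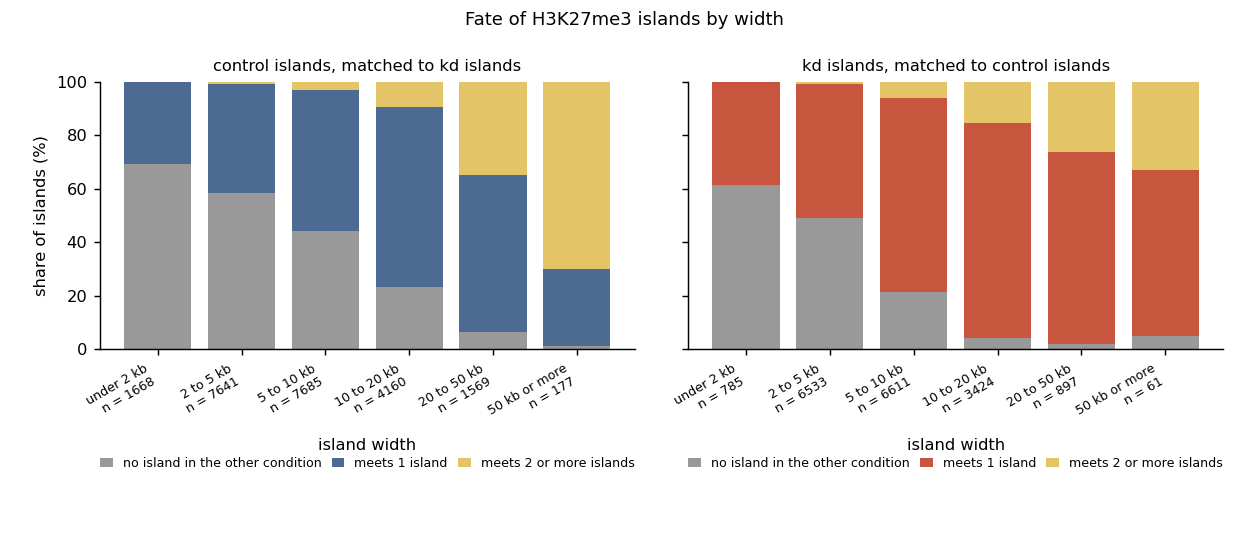
Share of islands (%, vertical axis) by island width (horizontal axis, with the number of islands), for control islands matched to kd islands (left) and kd islands matched to control islands (right). Narrow islands were mostly unmatched in both directions, and 70.1% of control islands of 50 kb or more met several kd islands, against 32.8% of equally wide kd islands that met several control islands.

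Islands with a single partner shrank slightly more often than they grew. Among 9237 such pairs, 5136 were narrower after kd (55.6%, 54.6 to 56.6%), 340 were equal and 3761 were wider, with a median log2 width ratio of −0.09. The kd island lay inside both ends of the control island in 2741 pairs and beyond both ends in 1726. Because such a width class favours regression towards the other, pairs were classed by the mean of both widths. The share that was narrower after kd was then 43.6% at 2 to 5 kb, 55.3% at 5 to 10 kb, 67.3% at 10 to 20 kb, 77.5% at 20 to 50 kb and 83.3% (20 of 24) at 50 kb or more. Shrinking thus went with width, and at 2 to 5 kb more pairs were wider (1276) than narrower (1087) after kd. Over all 11439 matched groups, including splits and joins, 57.4% (56.5 to 58.3%) covered fewer bases after kd.

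The islands that differed most are at named genes. The 5 control islands with most bases lost included 4 on distal chromosome 8. The island over Zfpm1, which encodes a Gata cofactor, spanned 160.2 kb and lost 95.6 kb, of which 57 kb were inner gaps between 4 kd islands. The island at Irf8, an interferon regulatory factor of myeloid cells, lost 69.8 of 98.6 kb from its ends. Those at Necab2 and Cbfa2t3 lost 68.2 of 91.8 kb and 67.2 of 85 kb. The fifth, with no protein-coding TSS inside and Megf6 as the nearest gene, lay on chromosome 4 and was lost whole with 59.4 kb. The most broken islands were those at Col16a1, a collagen gene, and at Efnb1, an ephrin ligand on X, each with 8 kd islands in place of 1. The island over Sfmbt2, which encodes a Polycomb-group protein, met 7 kd islands. These 3 kept 77.4%, 83.3% and 79.2% of their bases. They were broken up but remained covered over most of their length.

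The kd islands with most bases gained were new ones. Of the 5, 4 lay on proximal chromosome 8, between positions 19748201 and 20712200, with widths of 147.6, 79.4, 56.8 and 45.2 kb over the predicted genes Gm21119 and Gm31371 or beside them. The fifth, of 34.4 kb on chromosome 1, covered the start of Trpm8, the cold-sensing channel, and of Hjurp, the chaperone that loads the centromeric histone. In all, 18 kd islands of 20 to 50 kb and 3 of 50 kb or more met no control island. Without chromosomes 8 and X the log2 ratio of covered bases was −0.48.

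Lost and new islands differed in base composition. The median GC content was 48.83% in control islands without a kd island and 41.37% in kd islands without a control island, against 47.67% and 47.22% in matched control and kd islands. The share of unmatched control islands was 23.5% at 38 to 42% GC and 58.9% above 54% GC. The share of unmatched kd islands took the opposite course, from 90.5% below 38% GC to 1.62% above 54%. CpG dinucleotides numbered 13.94 per kb in control-only islands and 6.967 per kb in kd-only islands, while the sequence covered in neither condition held 7.75. Repeat-masked bases were 21.99% and 30.92% of them. At the TSS of protein-coding genes the course was another: of genes with an island in control, 33.1% lost it at 46 to 50% GC of the TSS window and 17.3% above 54%, and gains ranged from 3.07% to 5.49% of genes without one over the GC classes, with no steady course. Among pairs with a single partner, the median log2 width ratio was 0.18 at 38 to 42% GC and −0.28 at 50 to 54% GC. The part of base composition in the losses and gains was not tested.

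**Figure D3:**
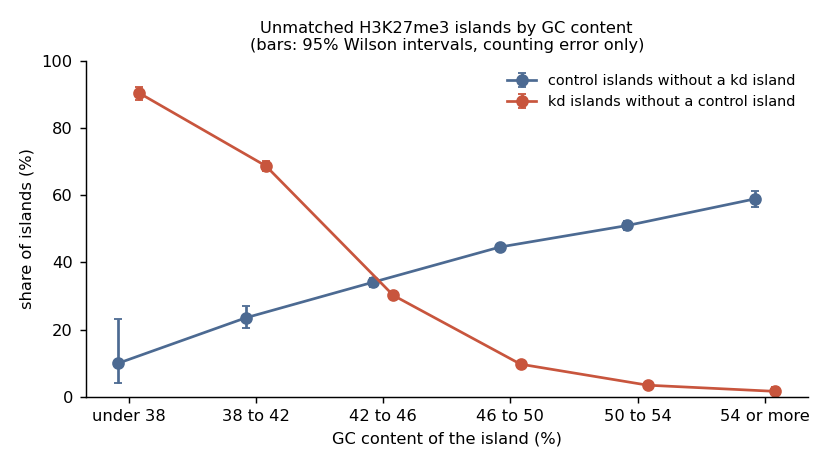
Share of islands without a counterpart in the other condition (%, vertical axis) by GC content of the island (%, horizontal axis). Points are shares of 1 list and bars 95% Wilson intervals. The curves cross: the control share climbs from 10.0% below 38% GC to 58.9% above 54%, and the kd share drops from 90.5% to 1.62%.

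The other antibodies mark these classes of sequence differently. Ezh2 peaks covered 2.638% of the bases held by H3K27me3 in both conditions in control and 4.858% after kd. In control-only islands Ezh2 covered 0.0969% and 0.03531%, and in kd-only islands 0.4193% and 0.03352%. H3K27ac, the acetylation of the same lysine, which is found at active promoters and enhancers, covered 1.051% of control-only islands in control and 3.596% after kd. In kd-only islands it covered 3.511% in control and 2.053% after kd. The higher H3K27ac coverage after kd was not confined to lost islands: it was 0.88% and 2.577% over bases that held H3K27me3 in both conditions, and 1.18% and 3.92% over the lost parts of matched control islands. It was 3.124% in both conditions over the gained parts of matched kd islands. In sequence without a called H3K27me3 island in either condition it covered 6.726% and 7.183%.

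Genes were assigned an island when 1 lay within 1 kb of their TSS. Of 53843 annotated genes, 12736 had an island in control and 10306 after kd. Of all genes, 6.78% (3653) lost the island and 2.27% (1223) gained one, while 9083 kept one. Among 21755 protein-coding genes, 7659 had an island in control and 6396 after kd. Of the 7659, 1787 (23.3%) lost it. Of the 14096 without an island in control, 524 (3.72%) gained one. The excess of losses over all genes depended on how the lists were shortened. When the control list was cut to its lowest p-values until both lists covered equally many bases, which left 11420 control against 18311 kd islands, 1745 genes lost and 2105 gained an island. With lists of equal number losses still exceeded gains, with a log2 ratio of gains to losses of −1.06 against −1.58 for the whole lists.

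A lost TSS could lie in an island that was gone or in one that had retreated. The whole island was absent at 1400 of the 1787 protein-coding genes, and their control islands had a median width of 5200 bp. At the other 387 a kd island remained elsewhere in the same control island, which had a median of 15000 bp, and the nearest kd island lay a median of 2589 bp from the TSS. Gains divided alike: 371 of 524 came from new islands, and 153 from a kd island that reached over the TSS from an island already present in control.

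The 8 protein-coding genes with the widest island lost whole were Acsf3, Ptgds, Ccdc188, Catsper4, Klk1b4, Rai1, Stab1 and Mybph. Acsf3, a mitochondrial acyl-CoA synthetase gene on chromosome 8, lost 45.2 kb and lay 91.89 kb from the nearest kd island. Ptgds, which encodes a prostaglandin D2 synthase, lost 29.0 kb, and Catsper4, a calcium channel of sperm, lost 27.6 kb. Klk1b4, a kallikrein, lost 26.4 kb, Ccdc188 28.4 kb, the scavenger receptor gene Stab1 24.2 kb and Mybph, a myosin-binding protein gene, 23.4 kb. Rai1 lost 25.8 kb and was the only 1 of the 8 with Ezh2. Ptgds, Ccdc188, Catsper4 and Klk1b4 held none of the other marks in either condition.

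The 8 with the widest island that retreated from the TSS were Trhr2, Flrt1, Osgin1, Ttll6, Cbfa2t3, Stra6, 1700025C18Rik and Eml1. Trhr2, a thyrotropin-releasing hormone receptor, lay in the Zfpm1 island of 160.2 kb and was 14.55 kb from the nearest kd island. Cbfa2t3, a transcriptional corepressor of blood cells, was 15.51 kb away, Osgin1 12.88 kb, Eml1 14.56 kb and Flrt1 22.87 kb. Stra6, the receptor for retinol-binding protein, lay only 1.788 kb from the remaining island, and 1700025C18Rik 2.451 kb. Ttll6 shared its island of 91.0 kb with Hoxb13, which kept an island of 57.6 kb, and lay 7.386 kb away. Trhr2, Osgin1 and Cbfa2t3 lie on chromosome 8.

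The 8 with the widest gained island were Gm21119, Gm31371, Ifna7, Gm21188, Zfp287, Trpm8, Sp110 and Vmn1r235. Gm21119 and Gm31371 lie under the new islands on chromosome 8 described above. Ifna7, an interferon alpha gene, lay in a kd island of 55.4 kb and 2428 bp from the nearest control island. The vomeronasal receptor gene Vmn1r235 gained a new island of 31.0 kb and the interferon-induced Sp110 one of 33.8 kb. The zinc finger gene Zfp287 lay in a kd island of 34.4 kb that overlapped a control island, with the nearest control island 2496 bp from the TSS. Several of these genes belong to clusters of close copies. Reads between such copies can be hard to place uniquely, so gains at clustered copies are uncertain. The part of read placement in them was not tested. Among families picked after the values were seen, 7 of 14 interferon alpha genes gained an island and none had one in control. Olfactory and vomeronasal receptor genes gained islands no more than the background of 3.72%, with 37 and 10 genes, or 3.35% and 3.03% of those without an island in control. Only 29 olfactory receptor genes had a control island, of which 12 lost it (41.4%, 25.5 to 59.3%), and the only vomeronasal receptor gene with one kept it. The median GC content of the TSS windows was 40.1% for interferon alpha, 36.4% for olfactory and 36.6% for vomeronasal receptor genes.

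Genes with Ezh2 in control rarely lost their island, but most genes that kept one had no Ezh2 either. Of 5872 protein-coding genes that kept an island, 1530 (26.1%) had Ezh2 in control. Among 1360 protein-coding genes with an island, Ezh2 and H3K4me3 in control, 4 lost the island (0.294%, 0.114 to 0.754%). With Ezh2 and no H3K4me3, 3 of 177 lost it (1.69%). Without Ezh2, 796 of 3294 genes with H3K4me3 (24.2%, 22.7 to 25.7%) and 984 of 2828 without it (34.8%, 33.1 to 36.6%) did. The 7 exceptions with Ezh2 were Cfap77, Igf2bp3, March9, Prpsap1, Prss39, Rai1 and Spaca7. Cfap77 and Igf2bp3 had narrow islands of 1.4 and 2.4 kb. Ezh2 was measured in its own pair of libraries, so its peaks were called apart from the islands. By the methods that pair was made in another laboratory than the H3K27me3 pair, whereas the labels name the same core facility for all. The contrast was not divided into classes of island p.

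The direction of the contrast held within classes of island width. Of TSS islands under 5 kb, 2 of 41 with Ezh2 were lost (4.88%, 1.35 to 16.1%) and 666 of 1451 without (45.9%, 43.3 to 48.5%). At 20 kb or more, 1 of 651 with Ezh2 (0.154%) and 176 of 1051 without (16.7%, 14.6 to 19.1%) were. With lists of equal covered bases, 5 of 1530 genes with Ezh2 (0.327%) and 891 of 4768 without (18.7%) lost their island. When the TSS base alone had to be covered, 54 of 1527 with Ezh2 (3.54%) and 1970 of 5233 without (37.6%) lost it. The direction held with either window, but the size of the contrast depended on it.

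**Figure D4:**
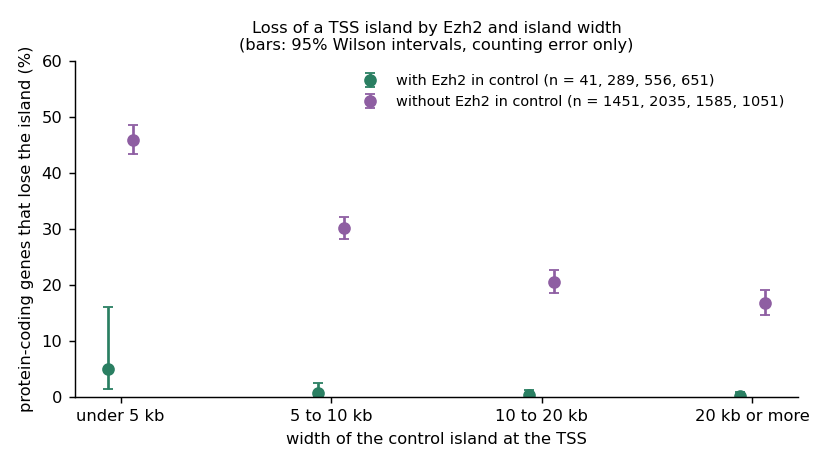
Share of protein-coding genes that lost the H3K27me3 island at the TSS (%, vertical axis) by the width of the control island (horizontal axis), with or without an Ezh2 peak within 1 kb of the TSS in control. Bars are 95% Wilson intervals. Genes with Ezh2 lie between 0.154% and 4.88%, and genes without it between 16.7% and 45.9%.

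The other marks at these promoters, which the choice of genes did not use, are given beside the same shares over all 21755 protein-coding genes. Ezh2 lay at 26.1% of TSS that kept an island in control and 45.9% after kd, at 0.392% and 1.62% of those that lost one, at 0.191% and 4.01% of those that gained one, and at 7.19% and 12.7% of all. H3K27ac lay at 3.34% of kept TSS in control and 14.4% after kd, at 7.39% and 27.2% of lost, at 11.3% and 20.4% of gained, and at 16.1% and 31.2% of all. H3K27ac was thus called at more TSS after kd in each of these classes, as over all genes. H3K4me3 lay at 65.6% and 76.2% of kept, 44.8% and 50.0% of lost, 47.1% and 48.3% of gained, and 57% and 60.9% of all TSS. Smarca4 hardly differed between conditions in any class, with 84.4% and 83.1% of kept, 59.0% and 60.5% of lost, 53.8% and 53.4% of gained, and 63.0% and 64.0% of all TSS. Kept TSS thus lay above the share over all genes, and lost and gained TSS below it. Of 287 genes with H3K27ac and H3K4me3, 37.6% (32.2 to 43.4%) lost the island, against 15.8% (14.8 to 17%) of 4367 with H3K4me3 and without H3K27ac. These 2 groups were not divided by Ezh2. Of genes with H3K4me3 and without Ezh2, 24.2% lost the island.

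The background against which gene groups are read is 23.3% of protein-coding genes losing an island, and the median log2 width ratio of −0.13 over the 5872 that kept one, of which 3480 were narrower and 2246 wider after kd. These widths are those of the island at the TSS, and a narrower one can be a piece of a broken island. For that reason the share of the control island still covered by any kd island is given too. Its median over the 5872 genes was 88.8%, and 1030 of them lay in a control island that met several kd islands. Transcription factors of development mostly kept their islands. In the 6 lists of Hox, other homeobox, forkhead, lineage Sox, T-box and Gata, and proneural bHLH genes, 253 of 268 genes had an island in control, 8 lost it (3.16%, 1.61 to 6.11%) and 2 gained one. Ezh2 lay at 191 of the 253, and of all protein-coding genes with Ezh2 and an island 0.455% lost it. The median control island of these lists ranged from 20000 to 188600 bp. Over all protein-coding genes 10.7% lost an island of 20 to 50 kb and 9.18% one of 50 kb or more. No share matched for width or Ezh2 was taken for these lists. Other lists below also had low shares, such as ion channels with 4.76%.

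All 39 Hox genes, which pattern the body axis, kept an island, and the 4 clusters stayed almost wholly covered although 3 of their islands were broken up. The HoxA island of 188.6 kb, which also holds Evx1, met 4 kd islands, of which that at Evx1 spanned 42.4 kb, and 96.2% of it was still covered. The HoxC island of 260.4 kb met 2 kd islands and kept 96.9%, and the HoxD island of 138.0 kb met 2 and kept 99.3%. The HoxB island of 151.0 kb met 1 kd island of 145.4 kb. Hoxb13, which lies apart, had an island of 91.0 kb that met 3 kd islands and kept 80.7%. These 39 genes share 5 islands and are not independent. Of 113 other homeobox regulators, all had an island in control and only Six4 lost it, an island of 6.2 kb. Single regulators moved both ways. Gbx2 had 24.6 kb in control and 7.0 kb after kd, as 1 of 3 pieces that covered 77.2%, and Uncx 83.0 and 47.4 kb, with 91.6% covered by 3 pieces. The eye and brain regulator Pax6 had 43.6 and 48.8 kb, in a kd island that joined 2 control islands and was 91.8% covered in control.

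All 13 Sox genes kept an island, among them Sox17 of endoderm (21.4 and 29.4 kb) and Sox10 of neural crest (56.6 and 22.8 kb, with 40.2 kb of the control island covered by 3 kd islands). Of 28 proneural bHLH genes with an island none lost it, and Neurod4 gained one of 2.2 kb. Neurog1, which directs sensory neurogenesis, had 75.0 kb in control and 31.6 kb after kd, although 2 kd islands covered 90.4% of the control island. Ptf1a, a factor of pancreas and cerebellum, had 19.2 and 48.6 kb, in a kd island that met 2 control islands and was 88.5% covered in control. In the T-box and Gata list 23 of 24 kept an island. Tbx10 lost 10.0 kb and Tbx19, a pituitary factor, gained 6.0 kb. The heart factor Gata5 had 49.2 and 14 kb, with only 42.7% of its control island covered after kd. Tbx1 had 74.2 and 27 kb, with 84.6% covered by 2 kd islands. Tbx3, also a pluripotency factor, had 40 and 57.8 kb, with an Ezh2 peak only after kd. The kd island at Tbx3 met 2 control islands, which covered 97.9% of it.

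Forkhead genes had the highest share lost of these 6 lists, 6 of 36 (16.7%, 7.87 to 31.9%). This interval includes the 23.3% over all protein-coding genes. The 6 genes were Foxj3, Foxj2, Foxr1, Foxo3, Foxi1 and Foxo4, with control islands of 7.2, 6.4, 10.2, 2.8, 2.8 and 4.8 kb. Foxo3 and Foxo4 are factors of the insulin pathway that are broadly expressed. Regulators of lineages in the same family kept wide islands, such as the endoderm factors Foxa2 (45.0 and 38.8 kb) and Foxa1 (31.2 and 52.4 kb). The kd island at Foxa1 met 3 control islands, which covered 90.8% of it. None of the lost islands was wider than 10.2 kb, against a median of 20000 bp for the family in control.

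**Figure D5:**
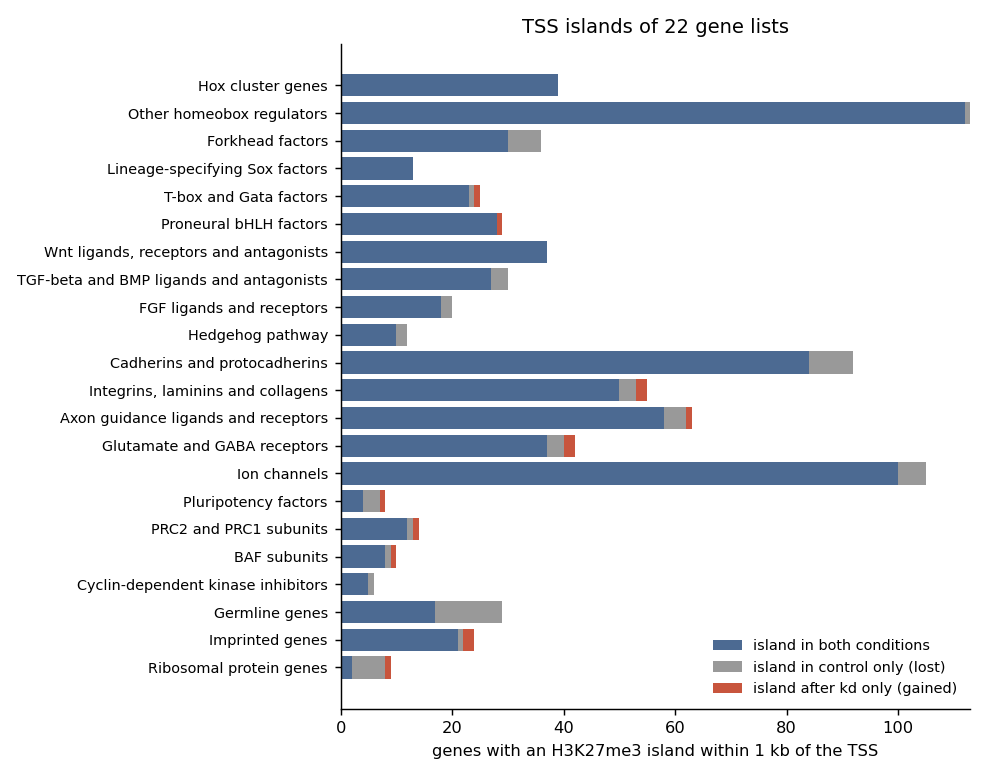
Number of genes (horizontal axis) of 22 lists (vertical axis) with an H3K27me3 island within 1 kb of the TSS in both conditions, in control only or after kd only. No Hox, Sox or Wnt list member lost its island, and 12 of 29 germline genes did.

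The signalling lists differed among themselves, with no loss in the Wnt list and 10.0% to 16.7% of genes in the other 3, from few genes each. All 37 Wnt ligands, receptors and antagonists with an island kept it, with islands at Wnt1 and Wnt10b of 49.4 kb in control and 48.8 kb after kd and at Wnt9b of 61.2 and 28.8 kb, where 2 kd islands covered 77.8% of the control island. Of 30 TGF-beta and BMP genes 3 lost an island, the left-right ligand Lefty2 (3.2 kb), Gdf1 (20.4 kb) and Inhbe (12.2 kb). Of 20 FGF genes, Fgf22 lost 8.8 kb, and Fgf4, a ligand active in stem cells, lost the cover of its TSS. The island of 37.0 kb that it shares with Fgf3 met 2 kd islands that covered 62.2% of it, of which that at Fgf3 spanned 9.8 kb. Of 12 Hedgehog pathway genes the effectors Gli2 (5.2 kb) and Gli1 (1.0 kb) lost an island. The ligand Shh kept 27.8 and 26.8 kb, and the island of 98.4 kb at Ihh met 4 kd islands, which covered 87.6% of it, with 35.2 kb at the TSS.

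Adhesion and neuronal genes mostly kept their islands, and many cadherin islands were wider after kd. Of 92 cadherin and protocadherin genes 8 lost an island (8.7%, 4.47 to 16.2%), among them Cdh1, the E-cadherin of stem cells and epithelia (15 kb), and Cdh15 (22.2 kb). Of the 84 genes that kept one, 53 had a wider and 30 a narrower island, with a median log2 ratio of 0.56. These genes share 60 control islands, and 43 of the 84 lay in a kd island that met several control islands. Much of this came from the clustered protocadherins, neuronal surface proteins in a tandem array, where neighbouring genes share islands: Pcdha8, Pcdha9 and Pcdha12 lay in separate control islands of 2.2, 4.6 and 2.8 kb and in a single kd island of 31.0 kb. Control islands covered 72.3% of that kd island. Single genes of the family also had wider islands, such as Pcdh7 with 10.2 and 38.6 kb, the latter meeting 4 control islands that covered 74.1% of it. The median GC content of the TSS windows in this list was 45.5%, the lowest of the 22 lists, and the part of base composition in these widths was not tested.

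Of 62 axon guidance genes 4 lost an island (Efna4, Ephb4, Ntn5 and Plxnb3), and Robo4 gained one. The semaphorin Sema3f had 85 and 28.4 kb, with 90.8% of the control island covered by 4 kd islands. Of 40 glutamate and GABA receptor genes 3 lost an island (Gabrr2, Grik5 and Gabre), and Gabrg1 and Gabra3 gained islands of 7.6 and 2.0 kb. The 37 genes that kept one, in 36 control islands, were divided, 20 with a wider and 17 with a narrower island. Of 105 ion channel genes 5 lost an island, among them the potassium channel genes Kcnj1 and Kcne1. Of 53 integrin, laminin and collagen genes 3 lost an island (Lama5, Col6a1 and Itgb5), and Itgav and Lama2 gained one.

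Germline genes, which stem cells keep silent and of which many act in meiosis, lost 12 of 29 islands (41.4%, 25.5 to 59.3%). The ribosomal protein list, with 6 of 8 (75.0%, 40.9 to 92.9%), and the pluripotency list, with 3 of 7 (42.9%, 15.8 to 75.0%), had higher shares from fewer genes. None of the 8 germline genes without a control island gained one, although 3 germline genes did with lists of equal covered bases. Those that lost it were Dazl, Stra8, Sycp3, Hormad1, Mael, Sohlh2, Stk31, Piwil2, Piwil4, Zp1, Zp2 and Zp3. Dazl, an RNA-binding protein of germ cells, had an island of 2.4 kb in control and its nearest kd island 99.24 kb away. Stra8, the retinoic acid-induced gatekeeper of meiosis, had 6.0 kb, Hormad1 and Sycp3 of the meiotic chromosome axis 4.2 and 4.8 kb, and the egg coat genes Zp1, Zp2 and Zp3 7.4, 2.4 and 6.2 kb. Mael, of the piRNA pathway, lay in a wide island of 29.2 kb that retreated by 3.454 kb from the TSS. Ddx4 kept 8.0 and 5.2 kb, Dmrt1 14.8 and 8.6 kb and Taf7l 12.2 and 30 kb. The kd island at Taf7l met 3 control islands, which covered 70.7% of it.

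The islands of germline genes were narrow, and Ezh2 lay at 2 of the 29. Under 10 kb, 11 of 18 germline genes lost the island (61.1%, 38.6 to 79.7%) against 1283 of all 3816 protein-coding genes with such islands (33.6%), and at 10 kb or more 1 of 11 against 504 of 3843 (13.1%). The share for the germline list drew near that of all genes when islands with a p above 1e-20 were left out, with 7 of 24 (29.2%) against 25.8%. With lists of equal covered bases it was 6 of 20 (30%) against 14.2%. The E-box CACGTG, which reads the same on both strands, was found in the 300-base promoter window of 5 of 9 matched germline promoters that lost an island and in 6 of 12 that kept one, against 8.65% of all 14230. It was therefore common in the list. The intervals for lost (26.7 to 81.1%) and kept promoters (25.4 to 74.6%) are too wide to tell whether it went with their fate.

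Among pluripotency factors 7 of 25 had an island in control, and 3 of them lost it: Klf4 (1.8 kb), Nr5a2 (7.0 kb) and Fgf4. The Klf4 island ended 266 bp from the TSS, which held H3K4me3 in both conditions and H3K27ac after kd only. Sall4 gained 3.4 kb, and Prdm14 kept 9.8 and 12.8 kb. Of 6 cyclin-dependent kinase inhibitor genes, Cdkn1a, a p53 target, lost the cover of its annotated start, with a kd island 3.025 kb away. Cdkn2a and Cdkn2b kept a common island of 50.0 and 53.6 kb, and Cdkn1c, an imprinted gene, lay in an island of 207.6 kb in control and 207.4 kb after kd.

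At genes of the chromatin complexes themselves the island at the TSS was mostly narrower after kd, in part because it was broken up. Of 13 Polycomb genes with an island, Ring1 lost one of 3.8 kb and Aebp2, a PRC2 cofactor, gained 3.0 kb, and 10 of the 12 genes that kept an island had a narrower one. These 12 genes share 10 control islands, 7 of them lay in a control island that met several kd islands, and the median share still covered was 91.2%, against 88.8% over all genes. Bcor, a PRC1 partner, had 8.6 and 48.2 kb, the latter meeting 4 control islands that covered 94.2% of it. Of 9 BAF genes Smarcc2 lost the cover of its TSS and the neural subunit gene Dpf1 gained it. Of the other 8, 7 had narrower islands, among them Brd7 (28.8 and 6.4 kb, 52.8% covered), Dpf3 (28.4 and 10.2 kb, 88.0% covered) and Bcl11b (46.6 and 18.6 kb, 75.1% covered). Of the 8, 4 lay in a control island that met several kd islands. Smarca2, the alternative ATPase, had 12 and 18.6 kb. Of 22 imprinted genes only Gnas lost an island, and the neighbours Ndn and Mkrn3 gained 22.8 and 12.4 kb. Ribosomal protein genes, an active group, rarely had an island, and 6 of the 8 that did in control lost it.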

How the data were processed

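H3K27me3 chromatin immunoprecipitation was performed on 1 library per condition. By the methods, Active Motif made the H3K27me3 and Smarca4 libraries from cells that the authors had fixed, and the authors made those of Ezh2, H3K27ac and H3K4me3, whereas the labels name 1 core facility for all. The authors trimmed reads with Trim Galore, aligned them to mm10 with Bowtie2, kept unique alignments with few mismatches with SAMtools 1.9, and called islands with SICER (window 200 bp) and peaks of Smarca4 and Ezh2 with MACS2. The background was input by the methods and IgG by the labels. The deposited p-value of each island is SICER's, at most 9.97e-11, and the deposited score of each peak is that of MACS2. Neither score nor p-value is scaled between libraries. The lists carry no read counts, so the depth is unknown here.

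Lists were read on chromosomes 1 to 19 and X, which left out 9 lines of each H3K27me3 list. Island ends were taken as the last base included, since all starts and ends then fall on 200 bp windows. Overlaps of at least 1 bp were found with bedtools 2.31.1. The TSS is the 5′ end of each GENCODE M21 gene (an earlier release than the study's), its window reaching 1 kb to either side. An island was called lost or gained at a TSS when it overlapped the window in 1 condition only. Base composition and repeat masking came from the GRCm38.p6 sequence, and promoters, matched by symbol within 1000 bp of the GENCODE start, from RefSeq (GRCm38.p6). Shares have 95% Wilson intervals. Matching was tested on simulated lists and recovered 7 of 7 known quantities.

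The classes of genes, the 22 gene lists and the printed examples were chosen with earlier results of these data known. Genes were named as the 8 protein-coding genes with the widest island lost whole, lost at the TSS alone, or gained, the genes at the 5 islands with most bases lost, most split or most bases gained, members of the lists, and 14 genes of pluripotency, PRC2, BAF and cell cycle arrest. Alternatives were p limits of 1e-20, lists of equal number or equal bases, other overlaps, joining and TSS windows. Those on gene groups and on the log2 ratio of genes gaining to losing an island, and 4 of those on the share of matched groups with fewer bases, were added after the data were seen, as were the shares of control islands still covered at kept genes.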

Additional observations from a re-analysis of the deposited data

How the results depend on the processing

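Of all alternatives run, only lists of equal covered bases turned a direction. The log2 ratio of genes gaining to genes losing an island was −1.58 as reported and 0.27 there, between −2.16 and −1.06 in all others. The balance of unmatched islands turned there too, from 10103 control and 5294 kd islands to 2224 and 8118. By construction that alternative removes the control islands of highest p, leaving 11420 control and 18311 kd islands. The log2 ratio of covered bases, −0.43, was −0.57 at p at or below 1e-20, −0.30 for lists of equal number, −0.47 without repeat-masked islands and −0.48 without chromosomes 8 and X. At p at or below 1e-20, control islands without a kd island numbered 6190, kd islands without a control island 1974, split control islands 654, joining kd islands 581 and genes gaining an island 740. For lists of equal number, 6584 control islands were unmatched and 58.7% of matched groups covered fewer bases, an alternative added after the data were seen. For lists of equal covered bases, unmatched control islands were 2224, unmatched kd islands 8118, joining kd islands 459, genes losing an island 1745, genes gaining one 2105, and the share of matched groups with fewer bases 61.2%. Joining islands less than 2000 bp apart gave 804 split and 327 joining islands and a share of 58.4%. Among protein-coding genes alone, 1787 lost and 524 gained an island.

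The germline count of 12 was 7 at p at or below 1e-20, 6 with equal covered bases and 10 to 12 otherwise, and germline genes gaining an island were 3 with equal covered bases and 0 otherwise. No paired analysis was possible because each condition has 1 library, and for the same reason no library could be left out. Unknown depth limits all statements on absence: a stretch without an island was not called, which does not show that it lacks the mark.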
